A study of Mus musculus with 6 samples.

Results

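The genes described here are the 3 D-type cyclins (Ccnd1, Ccnd2, Ccnd3), the kinases they switch on (Cdk4 and Cdk6), the next cyclin and kinase in line (Ccne1 and Cdk2) and the 3 pocket protein genes (Rb1, Rbl1, Rbl2). They were chosen by name, and all 10 were found among the 15553 genes of the deposited table. Expression was measured by RNA sequencing in blood stem and progenitor cells sorted from the bone marrow of C57BL/6 mice aged 6 to 8 weeks. The sort took lineage-negative, Sca1+, c-Kit+ cells. The protocol names both a CD150+ and a CD150- gate of CD48- cells and the sample labels only CD150+, so the gate of each library is not settled. The 3 libraries labelled WT came from Mx1-Cre mice with an intact Yy1 gene, and the 3 labelled Yy1-KO from Yy1f/f;Mx1-Cre mice, whose Yy1 alleles can be removed by the recombinase. The Cre transgene was therefore common to both groups. Its Mx1 promoter answers to interferon and is active in many cell types besides stem cells, so the deletion is not particular to the sorted cells. YY1 is a zinc-finger transcription factor, and the study's title asks about its role in keeping stem cells at rest.

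A resting blood stem cell that receives growth signals first makes D-type cyclins, which bind and activate CDK4 and CDK6. These kinases phosphorylate the pocket proteins RB, p107 (Rbl1) and p130 (Rbl2), which hold E2F transcription factors in check. Release of E2F raises cyclin E, cyclin E activates CDK2, and the cell passes from G1 into S phase. In resting cells p130 is the pocket protein typically found on E2F target genes, as part of the DREAM complex, while p107 is itself made from an E2F target gene and is known from cycling cells. In blood stem cells CDK6 is known for setting how fast a cell leaves rest, and cyclin D2 and cyclin D3 for serving blood cell growth.

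Values are RPKM, reads scaled by gene length and by library size, and levels of different genes are set side by side on this scale. How far amplification of the RNA and exonic bases shared with other genes affect such comparisons was not tested. The library size implied by the RPKM values ranged from 12920166 to 16112105 in WT and from 17402754 to 19535414 in Yy1-KO. Reads recovered for the listed genes summed to more than this in every library. They summed to 15102955 to 18460013 in WT and 19473173 to 21756988 in Yy1-KO, so these sums are estimates and not exact counts. WT replicate 3 stood apart on the first principal component and listed 1991 genes at 0, against 373 to 1099 in the others. Yy1 itself stood at 31.6, 42.3 and 52.1 RPKM in WT and at 36.2, 16.6 and 28.5 RPKM in Yy1-KO. Yy1-KO replicate 1 thus lay inside the WT range, and WT replicate 1 inside the Yy1-KO range. At this gene neither library was set apart by its label, although the value covers the whole gene and may hold reads from a part that was kept. The log2 difference of Yy1-KO over WT at Yy1 was -0.66, or -0.90 without Yy1-KO replicate 1 and -0.85 without WT replicate 1. Yy1 did not pass any of the tests used below. Its adjusted p was 0.680 in limma (SE 0.32), 0.564 in limma-voom and 0.586 in the authors' test. For each of the 10 genes the log2 difference is given below with and without WT replicate 3 and Yy1-KO replicate 1. For the pathway lists the counts and medians are given in the same way. All 7 markers of the stem and progenitor gate were present, with a summed level of 476 to 545 RPKM in WT and 323 to 360 RPKM in Yy1-KO, without overlap. None of the 8 B and T cell markers was in the table. The 4 megakaryocyte markers summed to 18.6 to 35.9 RPKM in WT and 46.2 to 92.6 RPKM in Yy1-KO, and the part of this difference in the results below was not tested. The labels do not say that the libraries came from separate mice, so the tests measure the spread between libraries, which may be technical.

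None of the 10 genes passed the test. In limma on log2(RPKM + 0.5), with Benjamini-Hochberg adjustment over all genes, 0 of the 10 had an adjusted p under 0.05, against 0 of 13179 genes tested (0.0%). At an unadjusted p under 0.05 there were also 0 of the 10, against 7.79% of all genes. In limma-voom on recovered reads 0 of the 10 passed (0.0458% of all genes) and 3, namely Ccnd1, Cdk4 and Rbl1, had an unadjusted p under 0.05 (8.14% of all genes). By the authors' own test in their deposited table, 0 of the 10 passed at an adjusted p under 0.05 (0.154% of the table), while 4, namely Ccnd2, Cdk6, Ccne1 and Rbl1, had an unadjusted p under 0.05 (8.02% of the table). The log2 fold change (log2 difference) of Yy1-KO over WT lay above 0 in 5 genes and below 0 in 5, with a median of 0.12, beside a median of 0.02 over all genes tested. The 3 values of one group lay clear of the other in 3 of the 10, Cdk4, Rb1 and Rbl1, against 14.5% of all genes tested, and in each the Yy1-KO libraries were the higher ones (7.63% of all genes). In bulk RNA, fewer cells that carry a transcript and less of it per cell cannot be told apart.

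**Figure D1:**
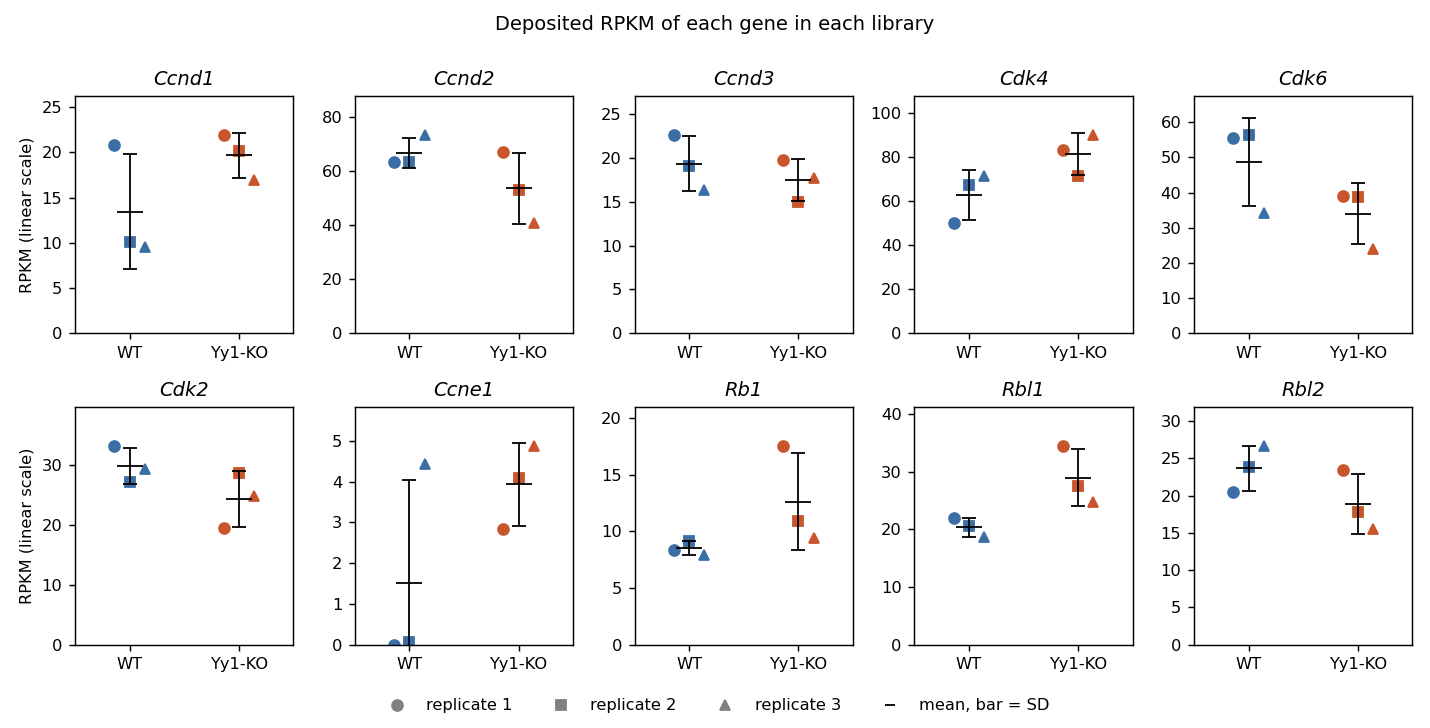
RPKM (linear y axis, one scale per gene) of each gene in the 3 WT (blue) and 3 Yy1-KO (orange) libraries, with markers for replicate numbers and a black bar for mean ± SD (cut at 0 for Ccne1). Cdk4, Rb1 and Rbl1 have no overlap between groups, and Ccne1 shows 1 WT library, replicate 3, at the level of the Yy1-KO libraries.

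Among the D-type cyclins, Ccnd2 was the most abundant in all 6 libraries, and Ccnd1 and Ccnd2 had differences of opposite sign. Ccnd1 (ENSMUSG00000070348, chromosome 7: 144929931 to 144939925), which encodes cyclin D1, stood at 20.8, 10.1 and 9.49 RPKM in WT and at 21.9, 20.2 and 17.0 RPKM in Yy1-KO. WT replicate 1 lay inside the Yy1-KO range, and the other WT libraries lay at about the level of each other, below every Yy1-KO library. On the log2 scale Yy1-KO exceeded WT by 0.61 (SE 0.34, limma adjusted p = 0.720). This difference was 0.97 without WT replicate 1, 0.42 without WT replicate 3 and 0.53 without Yy1-KO replicate 1.

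Ccnd2 (ENSMUSG00000000184, chromosome 6: 127125162 to 127152193), the gene of cyclin D2, stood at 63.5, 63.6 and 73.4 RPKM in WT and at 67.1, 53.2 and 40.9 RPKM in Yy1-KO. Yy1-KO replicate 1 lay inside the WT range, while the other Yy1-KO libraries lay below it. Yy1-KO differed from WT by -0.34 on the log2 scale (SE 0.21, limma adjusted p = 0.752), and by -0.51 without Yy1-KO replicate 1, -0.27 without WT replicate 3 and -0.16 without Yy1-KO replicate 3. Ccnd3 (ENSMUSG00000034165, chromosome 17: 47505051 to 47599691), the gene of cyclin D3, stood at 22.6, 19.1 and 16.4 RPKM in WT and at 19.8, 15.0 and 17.7 RPKM in Yy1-KO. The groups overlapped, at a log2 difference of -0.14 (SE 0.23, limma adjusted p = 0.911). It was -0.25 without WT replicate 3, -0.23 without Yy1-KO replicate 1, and near 0 without WT replicate 1 (-0.03) or without Yy1-KO replicate 2 (-0.04).

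The summed RPKM of the 3 D cyclin genes was 99.7 ± 7.04 in WT and 90.9 ± 16.7 in Yy1-KO (SD, n = 3 each, as for all means below), with overlap. Ccnd1 made up 19.5%, 10.9% and 9.55% of this sum in the WT libraries and 20.2%, 22.8% and 22.5% in the Yy1-KO libraries, which did not overlap although WT replicate 1 came close. Ccnd2 made up 67.3% ± 7.36 in WT and 58.7% ± 4.01 in Yy1-KO, and Ccnd3 19.4% ± 2.53 and 19.5% ± 3.44, both with overlap. Shares within a family add up to a whole and so are not independent of each other. They are given as descriptions without a test.

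The kinase pair showed a like split, with Cdk4 higher in each Yy1-KO library and Cdk6 lower on average. Cdk4 (ENSMUSG00000006728, chromosome 10: 127063534 to 127067920) stood at 50.0, 67.3 and 71.3 RPKM in WT and at 83.2, 71.4 and 90.0 RPKM in Yy1-KO. The groups did not overlap, but WT replicate 3 and Yy1-KO replicate 2 lay next to each other. When libraries were rescaled to a common median, these values did overlap. Its log2 difference was 0.38 (SE 0.20, limma adjusted p = 0.702), or 0.48 without WT replicate 3, 0.36 without Yy1-KO replicate 1 and 0.23 without WT replicate 1.

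Cdk6 (ENSMUSG00000040274, chromosome 5: 3341485 to 3531008) stood at 55.4, 56.3 and 34.2 RPKM in WT and at 39.1, 38.8 and 23.9 RPKM in Yy1-KO. WT replicate 3 lay inside the Yy1-KO range, and the other WT libraries lay above it. Its log2 difference was -0.51 (SE 0.29, limma adjusted p = 0.723). In the authors' deposited table it was -0.53 with an unadjusted p of 0.00763, the smallest of the 10 genes there, and an adjusted p of 0.473. Without WT replicate 3 the limma value was -0.74 (limma adjusted p = 0.532), without Yy1-KO replicate 1 it was -0.63, and without Yy1-KO replicate 3 it was -0.28.

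Cdk4 and Cdk6 together summed to 111 ± 10.5 RPKM in WT and 115 ± 6.18 RPKM in Yy1-KO. Of this sum Cdk6 took 52.6%, 45.5% and 32.4% in the WT libraries and 31.9%, 35.3% and 21.0% in the Yy1-KO libraries. Cdk6 thus outweighed Cdk4 only in WT replicate 1, and WT replicate 3 fell within the Yy1-KO range. The mean share of Cdk6 differed by -14.1 percentage points, Yy1-KO minus WT.

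**Figure D2:**
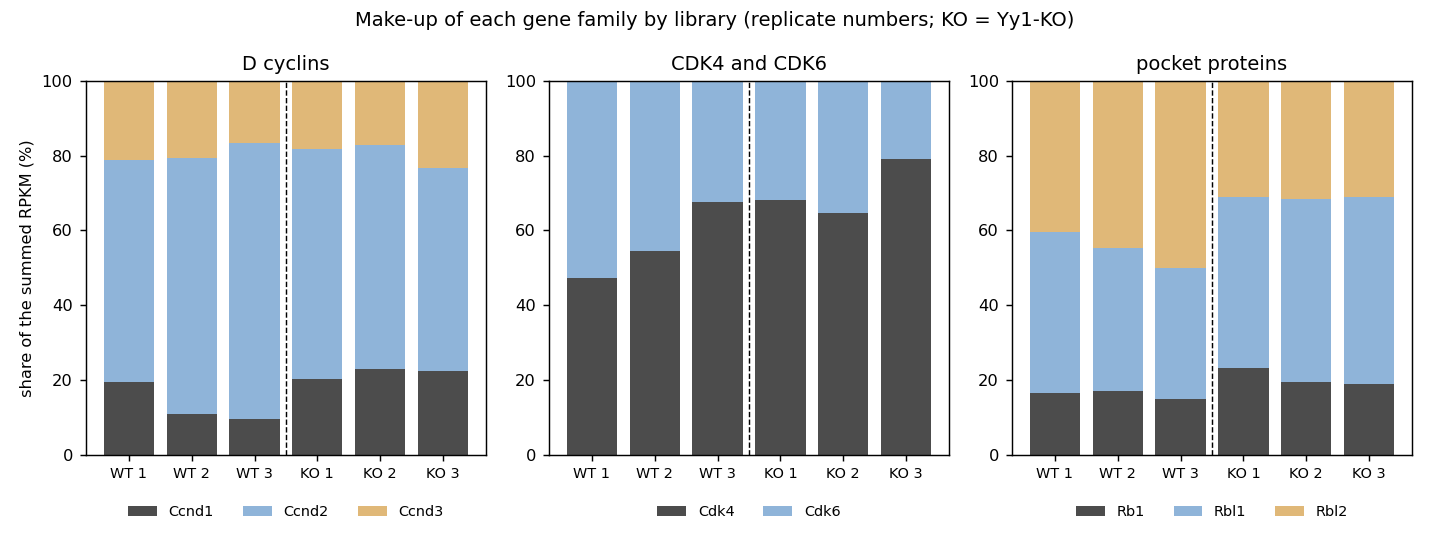
Share (%) of each gene in the summed RPKM of its family, 1 stacked bar per library (WT and Yy1-KO replicates 1 to 3, split by the dashed line). Rbl2 takes 40.3% to 50.0% of the pocket protein sum in WT and 31.1% to 31.7% in Yy1-KO, while the Cdk6 share of WT replicate 3 lies among the Yy1-KO values.

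Of the pair that acts next in G1, the kinase gene Cdk2 was lower in Yy1-KO on average, with overlap. The cyclin gene Ccne1 had the largest standard error of the 10 on the log2 scale. Cdk2 (ENSMUSG00000025358, chromosome 10: 128697939 to 128705031) stood at 33.1, 27.1 and 29.3 RPKM in WT and at 19.4, 28.7 and 24.8 RPKM in Yy1-KO. The groups overlapped through Yy1-KO replicate 2. The log2 difference of -0.30 (SE 0.22, limma adjusted p = 0.783) was -0.31 without WT replicate 3, -0.15 without Yy1-KO replicate 1 and -0.43 without Yy1-KO replicate 2.

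Ccne1 (ENSMUSG00000002068, chromosome 7: 38097984 to 38107534), the gene of cyclin E1, was listed at 0 in WT replicate 1, at 0.0699 RPKM in WT replicate 2 and at 4.45 RPKM in WT replicate 3. It stood at 2.85, 4.10 and 4.87 RPKM in Yy1-KO. In reads these were 0, 3 and 175 in WT and 132, 191 and 253 in Yy1-KO. A pair of WT libraries therefore held next to no Ccne1 reads, and the remaining one, WT replicate 3, lay inside the Yy1-KO range. On the log2(RPKM + 0.5) scale the groups differed by 1.96 (SE 0.94, limma adjusted p = 0.670). Without WT replicate 3 it was 3.03 (limma adjusted p = 0.369), without Yy1-KO replicate 1 it was 2.15, and without WT replicate 1 it was 1.38. The size also moved with the scale, to 3.21 with a pseudocount of 0.1, to 1.43 with a pseudocount of 1 and to 4.47 in limma-voom. At an average of 1.51 ± 2.55 RPKM in WT and 3.94 ± 1.02 RPKM in Yy1-KO it was the least abundant of the 10 in both groups.

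The pocket protein genes also had differences of both signs, with Rb1 and Rbl1 higher in every Yy1-KO library than in any WT library and Rbl2 lower on average. Rb1 (ENSMUSG00000022105, chromosome 14: 73183673 to 73325822), the gene of the retinoblastoma protein, stood at 8.39, 9.15 and 7.92 RPKM in WT and at 17.5, 10.9 and 9.45 RPKM in Yy1-KO. The WT libraries lay close together, and Yy1-KO replicate 1 lay well above the others. The log2 difference of 0.50 (SE 0.31, limma adjusted p = 0.747) was 0.45 without WT replicate 3 and 0.25 without Yy1-KO replicate 1. Yy1-KO replicate 1, which lay inside the WT range at Yy1, thus carried much of this difference.

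Rbl1 (ENSMUSG00000027641, chromosome 2: 157145893 to 157204534), the gene of p107, stood at 22.0, 20.5 and 18.7 RPKM in WT and at 34.4, 27.6 and 24.8 RPKM in Yy1-KO. The groups did not overlap, and here too Yy1-KO replicate 1 was the highest library. Yy1-KO exceeded WT by 0.48 on the log2 scale (SE 0.21), with the smallest unadjusted p of the 10 genes in limma, 0.0503 (adjusted p = 0.639). The difference was 0.42 without WT replicate 3 and 0.35 without Yy1-KO replicate 1.

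Rbl2 (ENSMUSG00000031666, chromosome 8: 91070057 to 91123844), the gene of p130, stood at 20.5, 23.9 and 26.6 RPKM in WT and at 23.4, 17.8 and 15.5 RPKM in Yy1-KO. Yy1-KO replicate 1 lay inside the WT range and the other Yy1-KO libraries lay below it. Its log2 difference of -0.33 (SE 0.24, limma adjusted p = 0.784) was -0.24 without WT replicate 3, -0.49 without Yy1-KO replicate 1 and -0.20 without Yy1-KO replicate 3.

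Seen as a family, the 3 pocket protein genes summed to 52.6 ± 1.45 RPKM in WT and 60.4 ± 13.2 RPKM in Yy1-KO, with overlap. Rbl2 made up 40.3%, 44.6% and 50.0% of the sum in WT and 31.1%, 31.7% and 31.1% in Yy1-KO. The Yy1-KO libraries agreed to within 1 percentage point on this share, although their sums ranged from 49.8 to 75.3 RPKM. Rbl1 made up 38.9% ± 4.10 in WT and 48.2% ± 2.21 in Yy1-KO, and Rb1 16.1% ± 1.14 and 20.5% ± 2.33. All 3 shares were without overlap between groups, and Yy1-KO replicate 1 did not stand apart in that of Rbl2. In 4 of the 7 shares looked at, these 3 and that of Ccnd1, the groups did not overlap. The 3 pocket protein shares are not independent of each other. No rate over all genes was worked out for shares, so this count is only a description.

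The stretches before the transcription starts of the pocket protein genes Rbl1 and Rbl2 and of the pair Cdk2 and Ccne1 are shown because Rbl1 and Rbl2 differed in opposite directions, Rbl1 and Ccne1 are known E2F target genes, and Cdk2 held an E2F word. Each holds the 250 bases before the start, 5′ to 3′ on the gene's own strand, from RefSeq on GRCm38.p6. These starts do not always match the gene coordinates given above, which are from GENCODE M21. The Ccne1 window reaches into those coordinates, and a gap lies between them and the Cdk2 window. Capitals mark matches, on either strand, to an E2F word (TTTCCCGC, TTTCGCGC, TTTGCCGC or TTTGGCGC), to the YY1 core CCATNTT or to the cell cycle homology words TTTGAA and TTCGAA. The windows are chr2:157204535-157204784 on the minus strand for Rbl1, chr8:91069807-91070056 on the plus strand for Rbl2, chr10:128705052-128705301 on the minus strand for Cdk2 and chr7:38107491-38107740 on the minus strand for Ccne1.
Rbl1: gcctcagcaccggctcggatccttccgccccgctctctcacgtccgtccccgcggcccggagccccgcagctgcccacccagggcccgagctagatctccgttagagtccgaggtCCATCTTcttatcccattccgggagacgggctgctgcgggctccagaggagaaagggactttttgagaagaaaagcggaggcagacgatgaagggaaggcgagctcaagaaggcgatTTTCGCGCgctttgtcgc
Rbl2: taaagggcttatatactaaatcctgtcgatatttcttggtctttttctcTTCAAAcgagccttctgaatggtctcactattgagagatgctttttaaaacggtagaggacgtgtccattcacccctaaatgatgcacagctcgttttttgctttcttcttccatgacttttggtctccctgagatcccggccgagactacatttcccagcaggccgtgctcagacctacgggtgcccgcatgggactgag
Cdk2: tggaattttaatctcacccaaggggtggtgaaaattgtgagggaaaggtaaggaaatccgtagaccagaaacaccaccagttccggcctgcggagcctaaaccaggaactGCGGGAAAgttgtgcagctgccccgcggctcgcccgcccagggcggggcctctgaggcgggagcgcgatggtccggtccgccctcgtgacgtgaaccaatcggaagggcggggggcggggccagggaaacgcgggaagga
Ccne1: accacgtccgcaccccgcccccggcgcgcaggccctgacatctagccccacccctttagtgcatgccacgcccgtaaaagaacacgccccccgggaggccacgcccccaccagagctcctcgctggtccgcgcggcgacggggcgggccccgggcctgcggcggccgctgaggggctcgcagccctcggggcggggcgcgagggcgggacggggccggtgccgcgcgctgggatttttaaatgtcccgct
An entry was found for 7 of the 10 genes (not Ccnd1, Ccnd2 or Rb1), with 8 windows in all because Ccnd3 has a pair of starts. An E2F word lay in 2 of the 8 windows, at position -18 from the start of Rbl1 and, on the other strand, at -140 of Cdk2, against 1.86% of 32851 windows of all genes. The YY1 core lay in 1 window, that of Rbl1 at -135, against 12.4% of all windows. A cell cycle homology word lay in 1 window, that of Rbl2 at -201 on the other strand, against 17.1% of all windows. The Ccne1 window, with 76.0% G and C bases, held none of these words, which says only that these letters are not in it. The words were chosen after promoter sequences had been read, so these counts beside those of all windows are a description and no test. A match describes the sequence and is no measure of binding.

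**Figure D3:**
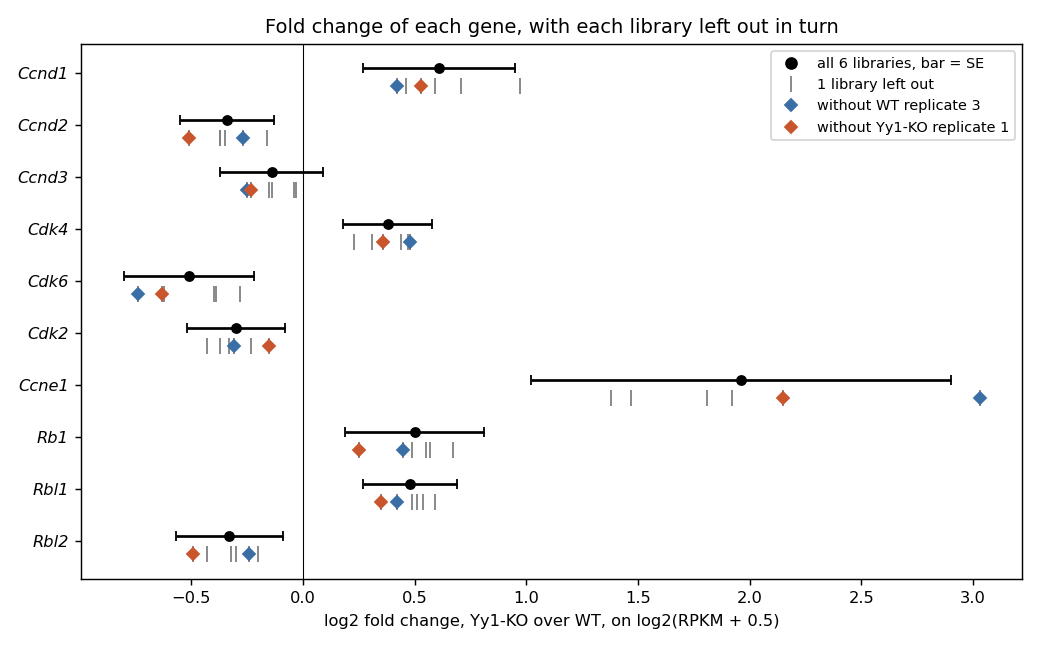
Log2 fold change of Yy1-KO over WT on log2(RPKM + 0.5) for each of the 10 genes: black points with SE bars from all 6 libraries, grey ticks with 1 library left out, diamonds for WT replicate 3 (blue) and Yy1-KO replicate 1 (orange). No gene crosses 0 when 1 library is left out, and Ccne1 ranges from 1.38 to 3.03.

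Ordered by level, Ccnd2 led in WT at 66.9 ± 5.69 RPKM, followed by Cdk4 at 62.9 ± 11.4 and Cdk6 at 48.6 ± 12.5 RPKM, neighbours whose ranges overlapped. Cdk2 at 29.8 ± 3.04 RPKM lay clear of Cdk6 above it and of Rbl2 at 23.7 ± 3.06 RPKM below it. From Rbl2 through Rbl1 (20.4 ± 1.68), Ccnd3 (19.4 ± 3.11) and Ccnd1 (13.5 ± 6.39 RPKM) the ranges of neighbours overlapped, while Rb1 at 8.49 ± 0.624 RPKM and Ccne1 lay clear below. In Yy1-KO, Cdk4 led at 81.5 ± 9.44 RPKM, clear of Ccnd2 at 53.7 ± 13.1 RPKM, which in turn lay clear of Cdk6 at 33.9 ± 8.67 RPKM. Rbl1 came next at 28.9 ± 4.92 RPKM, ahead of Cdk2 (24.3 ± 4.68), Ccnd1 (19.7 ± 2.51), Rbl2 (18.9 ± 4.07), Ccnd3 (17.5 ± 2.41) and Rb1 (12.6 ± 4.27 RPKM). From Cdk6 down to Rb1 the ranges of neighbours overlapped. By group mean, Rbl2 ranked above Rbl1 in WT and below it in Yy1-KO. Within WT replicate 1, however, Rbl1 (22.0 RPKM) exceeded Rbl2 (20.5 RPKM), while Rbl2 was the higher in the other WT libraries. Rbl1 was the higher in every Yy1-KO library.

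Likeness of pattern was measured as the root mean square difference between log2 profiles over the 6 libraries, each centred on its own mean, so that 0 is an identical profile. Within the 10 genes the closest pair was Ccnd2 and Rbl2, at 0.08, each the nearest to the other. Rb1 and Rbl1 were also nearest to each other, at 0.14. Ccnd1 and Cdk4 were both nearest to Rbl1 (0.31 and 0.29), Cdk6 and Ccnd3 to Ccnd2 (0.33 and 0.29) and Cdk2 to Ccnd3 (0.30). Ccne1 lay far from all of them, with Cdk4 nearest at 1.27. Among all genes tested, the nearest to Ccnd1 were Chmp2b, Trmt10a and Nudt16 (0.12 to 0.15), to Cdk6 Mtss1, Slco3a1 and Erp29 (0.11 to 0.12), and to Rb1 Prdx1, Fbxw17 and Aak1 (0.07 to 0.10). Prdx1, for one, stood at 15.5, 17.6 and 14.3 RPKM in WT and 33.6, 19.5 and 16.0 RPKM in Yy1-KO, the same high replicate 1 as Rb1. Each profile rests on 6 libraries, and 13179 genes were searched.

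The other genes of the G1 to S pathway were read from 6 lists with 53 tested members. Of these 42 lay above 0, against 6842 of the 13179 genes tested. In limma 0 of the 53 passed, as in limma-voom, and 10 had an unadjusted p under 0.05, all higher in Yy1-KO (4.73% of all genes) and none lower (3.06%). The groups did not overlap in 16 with Yy1-KO higher (7.63% of all genes) and in 1 with Yy1-KO lower (6.87%). The lists were chosen with earlier results on these libraries known, so the counts are a description. The shares over all genes given here, from all 6 libraries, also belong beside the counts of each list below that use all 6. Without WT replicate 3, 40 of the 53 lay above 0 and 8 had an unadjusted p under 0.05, all higher. Over all 13179 genes 1129 had such a p there, in either direction. Without Yy1-KO replicate 1 the list counts were 39 and 4, again all higher, and 713 of all genes had such a p. No pathway gene passed in either case. The count of all genes above 0, and the split of their p-values by direction, are not given for fits with a library left out. The median over all genes was 0.0 without WT replicate 3 and 0.04 without Yy1-KO replicate 1. List counts with a library left out, here and below, are thus descriptions without a like share over all genes.

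CDK inhibitors, the brakes on these kinases, were the one list with a median below 0, at -0.18 over 5 tested genes, 3 of them below 0. This median was -0.46 without WT replicate 3 but 0.32 without Yy1-KO replicate 1, so its sign turned on that library. Cdkn2a and Cdkn2b were not in the table. Cdkn1b, which encodes p27, the inhibitor of cyclin E and CDK2, stood at 14.6, 17.1 and 14.9 RPKM in WT and 12.5, 11.2 and 10.4 RPKM in Yy1-KO. It was the 1 list gene lower in Yy1-KO without overlap, at a log2 difference of -0.43 (SE 0.23, limma adjusted p = 0.711). The INK4 inhibitors of CDK4 and CDK6 varied within groups. Cdkn2d stood at 10.0, 37.5 and 42.7 RPKM in WT and 45.4, 33.7 and 30.0 RPKM in Yy1-KO, and Cdkn2c at 9.45, 7.23 and 0.579 against 5.43, 6.17 and 0.743 RPKM. Their log2 fold changes of 0.49 and -0.25 turned sign when single libraries were left out.

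Of the 10 E2F and DP factors, 8 lay above 0 (median 0.25) and 2 had an unadjusted p under 0.05. Without WT replicate 3 the count above 0 was 6 (median 0.10), and without Yy1-KO replicate 1 it was 5 (median 0.03). E2f8, an atypical repressor E2F, stood at 4.55, 7.50 and 2.73 RPKM in WT and 17.8, 13.2 and 9.64 RPKM in Yy1-KO, without overlap, and differed by 1.43 on the log2 scale (SE 0.42, limma adjusted p = 0.530). Tfdp1, the DP partner of E2F, went from a mean of 38.3 ± 8.08 to 62.3 ± 17.3 RPKM, also without overlap (limma adjusted p = 0.611). E2f7, the other atypical E2F, stood at 3.87 ± 2.41 and 6.86 ± 0.406 RPKM, with overlap. The MuvB core is what p107 or p130 joins in the DREAM complex, and B-Myb (Mybl2) binds that core after they have left it. In this list 5 of 6 lay above 0 (median 0.50) and 0 had an unadjusted p under 0.05. The median was 0.29 without WT replicate 3 and 0.38 without Yy1-KO replicate 1. Lin54, the DNA-binding subunit of the core, stood at 6.17 ± 1.70 and 9.12 ± 1.43 RPKM without overlap, and Mybl2 at 3.14 ± 1.98 and 5.37 ± 1.97 RPKM with overlap. The log2 difference of Mybl2 was 0.78, and 0.38 without WT replicate 3. Lin37 was listed at 0 in WT replicate 3 and stood at 6.47 and 9.26 RPKM in the other WT libraries, against 10.8, 5.11 and 13.2 RPKM in Yy1-KO. Its log2 difference was 1.56, and 0.21 without WT replicate 3.

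All 5 later cyclins and their kinase lay above 0 (median 0.90), and 4 had an unadjusted p under 0.05. Without WT replicate 3 the median was 0.88 with 3 such genes, and without Yy1-KO replicate 1 it was 0.75 with 2 and with 4 of the 5 above 0. Cdk1, the kinase of mitosis, stood at 13.0, 11.3 and 14.2 RPKM in WT and 24.5, 20.0 and 23.7 RPKM in Yy1-KO, without overlap (log2 difference 0.80, SE 0.22, limma adjusted p = 0.470). Ccna2, the cyclin A gene of S phase, stood at 8.75 ± 2.54 and 18.1 ± 7.76 RPKM with overlap, and Ccnb1 at 7.16 ± 1.53 and 14.1 ± 4.62 RPKM without. Among the 12 genes of CDK activation and cyclin turnover, 7 lay above 0 (median 0.12) and 0 had an unadjusted p under 0.05. The median was 0.07 without WT replicate 3 and 0.06 without Yy1-KO replicate 1. Skp2, which marks p27 for destruction, stood at 5.56 ± 0.664 and 9.20 ± 2.46 RPKM without overlap (limma adjusted p = 0.689). Its cofactor gene Cks1b stood at 14.4 ± 4.24 and 22.2 ± 11.1 RPKM, and Fbxw7, which marks cyclin E for destruction, at 8.85 ± 1.03 and 6.04 ± 2.33 RPKM, both with overlap. The log2 difference of Cks1b was 0.53, and 0.16 without Yy1-KO replicate 1. All 15 E2F target genes of G1 and S phase lay above 0 (median 0.43), against 6842 of 13179 genes tested. In 4 the unadjusted p was under 0.05 (4.73% of all genes, higher in Yy1-KO). In 8 the groups did not overlap (7.63% of all genes, higher in Yy1-KO). All 15 also lay above 0 without WT replicate 3 (median 0.34) and without Yy1-KO replicate 1 (median 0.40). Of these, Mcm6, a helicase subunit gene, stood at 89.0 ± 5.55 and 123 ± 16.3 RPKM (limma adjusted p = 0.586), Mcm4 had a log2 fold change of 0.78 (limma adjusted p = 0.451), and Rrm2, a ribonucleotide reductase gene, stood at 11.3 ± 5.06 and 23.4 ± 2.41 RPKM (limma adjusted p = 0.568).

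**Figure D4:**
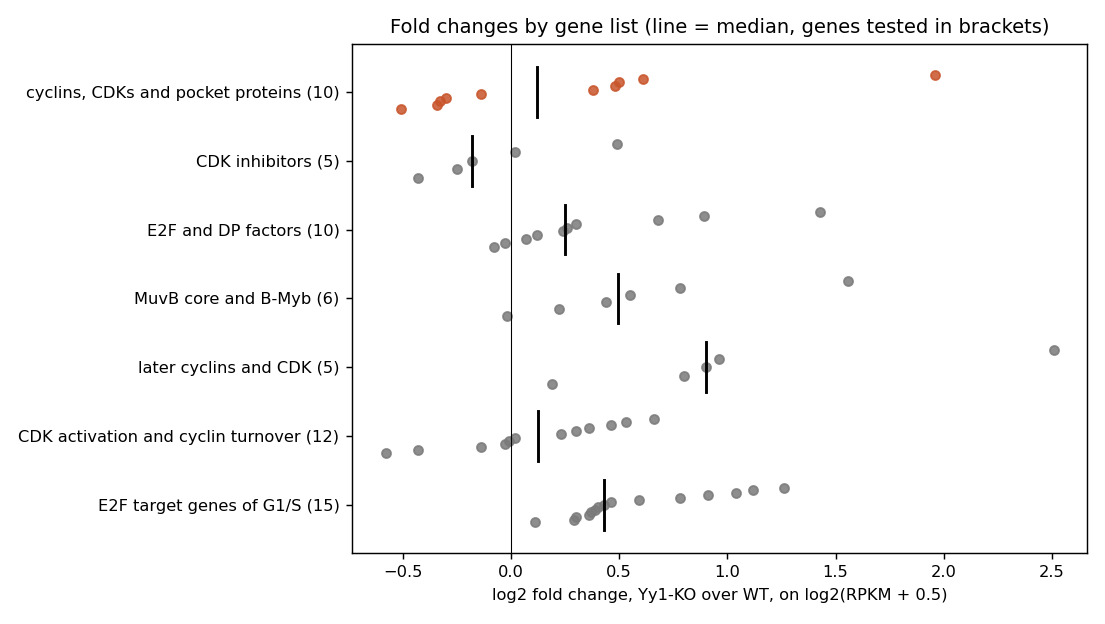
Log2 fold change of Yy1-KO over WT on log2(RPKM + 0.5), 1 point per tested gene, for the 10 genes (orange) and the 6 lists of pathway genes (grey), with the median as a black line. The 10 genes fall on both sides of 0 around a median of 0.12, while all 15 E2F target genes lie above 0.

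Several of the 10 genes share exonic bases with a gene on the opposite strand, and without a stated strand setting such reads cannot be assigned. Ccnd1 shares 1100 bases, 23.4% of its exonic length, with the gene annotated as LTO1, which stood at 1.92, 6.36 and 7.93 RPKM in WT and 3.49, 5.87 and 5.58 RPKM in Yy1-KO. WT replicate 1, the WT library with the most Ccnd1, had the least of this neighbour. Cdk4 shares 641 bases (19.7%) with Tspan31, which stood at 18.5, 22.0 and 15.5 RPKM in WT and 25.5, 19.1 and 22.2 RPKM in Yy1-KO, with overlap. Rb1 shares 488 bases (8.11%) with Rcbtb2, whose log2 fold change was 0.47 (unadjusted p = 0.0979), and 408 bases (6.78%) with Lpar6 (0.15). Rbl2 shares 693 bases (9.17%) with Aktip (0.07), Ccnd3 361 bases (4.11%) with Bysl (-0.79) and Cdk2 34 bases (0.547%) with Pmel (0.56). Rbl2 also shares 892 bases (11.8%) with Gm45464, Ccnd2 372 bases (3.95%) with Gm43126 and 368 bases (3.91%) with 9330179D12Rik, and Cdk6 368 bases (2.63%) with Gm17590, 4 genes without a row in the table. The part of these overlaps in the values of the 10 genes was not tested. Ccne1 overlaps no annotated gene, and the gene inside Rbl1, Gm14277, shares no exonic base with it.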

How the data were processed

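RNA from 3 WT and 3 Yy1-KO samples was sequenced after NuGen Ovation amplification, so reads are not independent molecules. The submitters' processing notes name the mm10 build and the tools Subread, featureCounts, limma and edgeR, without version or setting. The unit of the deposited library columns is not in the header: the authors' values behaved as RPKM, since value times GENCODE M21 (GRCm38) exonic length gave whole multiples of 1 step, within 0.02 reads in all libraries, for 70.8% of genes with a length. Reads were recovered from that step; for Ccnd1, Cdk2 and Rbl2 they are estimates. Per the file headers, the authors also deposited a log2 fold change of Yy1-KO over WT with its p-value, raw and adjusted. The gene filter of the table is not stated there.

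Genes reaching 1 RPKM in 3 or more libraries were tested on log2(RPKM + 0.5) with limma (version 3.58.1, R version 4.3.3), using a variance trend and Benjamini-Hochberg adjustment. All 10 genes passed that filter. Fold changes on this scale are understated for low genes. The code was tested on simulated data. Alternatives were other pseudocounts and filters, quantile and median scaling, no variance trend, limma-voom, a replicate block and leaving out each library. Named genes were the 10 genes, Yy1 and, per list, the 3 smallest p-values. Profiles were compared for Ccnd1, Cdk6 and Rb1. The genes, lists and tests were chosen with earlier results of these data known. Motif words were chosen after promoter sequences had been read.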

Additional observations from a re-analysis of the deposited data

How the results depend on the processing

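In the 15 alternatives run, the fold changes of the 10 genes kept their direction in all 149 values obtained, and none passed; the smallest adjusted p was 0.369, for Ccne1 without WT replicate 3. Ccne1 gave no value under the filter at 5 RPKM, where the median log2 fold change of the remaining genes turned to -0.14. The number of all genes called, 0 in limma, was 6 in limma-voom on recovered reads, none of them among the 10, and 0 to 1 with each library left out. The number of the 10 genes whose groups did not overlap was 3 to 5 with each library left out, when 22.1% to 27.0% of all genes did not overlap, and 2 after median scaling. Among pathway genes with each library left out, Cdkn2d ranged from -0.16 (without WT replicate 1) to 0.86, and Cdkn2c from -1.26 to 0.53, above 0 without WT replicate 1, WT replicate 2 or Yy1-KO replicate 3. Of the 7 differences in family shares, that of Ccnd3, 0.110 percentage points, turned negative without WT replicate 3 (-1.35) or Yy1-KO replicate 3 (-1.85), and the others kept their sign with any 1 library left out. Ccnd1 ranged from 6.63 to 11.6, Ccnd2 from -12.6 to -5.29 (without WT replicate 3), Cdk6 from -19.6 to -9.56, Rb1 from 3.02 (without Yy1-KO replicate 1) to 5.12, Rbl1 from 7.42 to 11.5 and Rbl2 from -16.0 to -11.1. With a replicate block, pairing the libraries by number, 0 genes passed among all tested and 0 of the 10. Cdk6 had an SE of 0.16 and a limma adjusted p of 0.599 there. It was the 1 gene of the 10 with an unadjusted p under 0.05, against 1040 of 13179 genes tested. Same-numbered libraries correlated at 0.015, 0.059 and 0.047 in their deviations from the group means. WT replicate 1 correlated best with Yy1-KO replicate 2, at 0.035. Deviations from means of 3 libraries cannot decide whether libraries of the same number were paired. Ccne1 had 0 and 3 reads in WT replicates 1 and 2, so counting error is large relative to those values. The source of their gap to the 175 reads of WT replicate 3 was not tested.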
